A study of Mus musculus with 4 samples.

Results

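The 47 probes described here report solute carriers and ion channels, the membrane proteins that move sugars, amino acids, anions, cations and water across the cell surface and the membranes of organelles. They were chosen by symbol from the study's list of changed genes, as all probes whose symbol starts with Slc, Slco, Kcn, Cacn, Scn, Clcn, Trpc, Trpm, Trpv, Aqp or Atp1, with Slc25a3, Slc22a4 and Slc2a12 left out. This gave 47 of the 33012 probes on the arrays and 46 symbols. The prefixes also caught Trpc4ap, an adaptor protein named for its binding to a TRP channel, and Atp11a and Atp13a1, which are P-type ATPases but not sodium pumps. A lentivirus carried NT-PGC-1α or an empty vector into immortalized brown preadipocytes of strain FVB, which were then differentiated into brown adipocytes. In both groups the induction lasted 2 days and combined insulin (20 nM) and triiodothyronine (1 nM) with indomethacin (250 µM), dexamethasone (2 µg/ml) and isobutylmethylxanthine (0.5 mM), and the cells were kept for 5 more days with the first pair of hormones. RNA was combined into 1 pool per group, and each pool was hybridized to 2 arrays, A and B. The number of RNA samples in a pool differs between the sources, with 3 in the methods and 2 in the description deposited with the data.

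Arrays A and B are therefore technical replicates, and the effect of NT-PGC-1α has no p-value here. A fold here is the ratio of the mean normalized signals of the pools on the log2 scale. The range given with it is over the 4 ways to pair an array of one pool with an array of the other. This range covers the scatter between hybridizations of a pool and not that between cultures. Signals of different probes are not comparable as amounts of RNA, so where probes are set against each other or against the array median, that describes brightness only. In RNA of whole cultures, fewer cells of a type and less RNA per cell cannot be told apart.

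NT-PGC-1α is the short N-terminal form of the coactivator PGC-1α, which drives mitochondrial and thermogenic genes in brown fat. The Ppargc1a probe of that list had signals of 114 and 136 in the empty vector pool against 1078 and 714 in the NT-PGC-1α pool, 7.06-fold higher. Of 9 general adipocyte markers none had a probe with a symbol. Of 12 brown adipocyte markers 3 had one, namely Ebf2, the member Kcnk3 and the overexpressed gene Ppargc1a. The study lists all 3 as changed, so the cell type could not be checked with them. Ebf2, a brown preadipocyte transcription factor, had signals of 10812 and 10287 in the empty vector pool against 17665 and 16649.9 in the NT-PGC-1α pool. Some markers of other cell types differed between the pools. Thy1 was 8.59-fold lower and Col1a1 1.59-fold lower with NT-PGC-1α (2 of 6 markers of preadipocytes or fibroblasts had a named probe), the macrophage marker Cd68 (1 of 6) was 2.43-fold lower, the muscle marker Myog (1 of 5) 2.78-fold lower, the neuronal marker Snap25 (1 of 4) 1.53-fold higher, and the endothelial marker Cdh5 (1 of 4) 2.20-fold higher. Signals ran from 60518 to 98456 for Col1a1, from 463 to 4294 for Thy1 and from 129 to 981 for the other four. Of the marker probes named here, those for Snap25 and Cd68 carry a RefSeq accession, and the others have a symbol only because the study lists them as changed. Their part in the values of the transporters was not tested.

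Solute carriers are secondary transporters that couple the movement of a substrate to an ion gradient or exchange it for another solute, and facilitators that let it run down its own gradient. In brown adipocytes they bring in glucose and other fuels, and carriers of the mitochondrial inner membrane hand these to the matrix enzymes that feed respiration. Ion channels set the membrane potential and the calcium level on which adrenergic signalling and hormone secretion depend. Among them, the potassium channel Kcnk3 is known for its expression in brown adipocytes, and the glucose transporter Slc2a4 is moved to the surface by insulin.

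The sequences upstream of some member genes are shown first, chosen in part as members that lie close together on a chromosome. Within each such pair both members differed the same way. So few pairs say nothing of neighbours in general, and a link between position and direction was not tested. Slc25a20 and Slc26a6, both higher with NT-PGC-1α, lie on mouse chromosome 9 with 4 protein-coding genes between them. Slc5a3 and Kcne1, both lower, lie on chromosome 16 with 5 between them. Among the members in the RefSeq table, no other pair had 20 or fewer protein-coding genes between them. Aqp11 and Slc24a3 are added as higher members that hold AGGTCA, the core element bound by nuclear receptors, on either strand. Each stretch is the 250 bases before a transcription start, in RefSeq sequence of build GRCm38.p6, written 5′ to 3′ on the strand of the gene, with the core element, or TGACCT where it lies on the other strand, in capitals.
Slc25a20, chr9:108661886-108662135, plus strand: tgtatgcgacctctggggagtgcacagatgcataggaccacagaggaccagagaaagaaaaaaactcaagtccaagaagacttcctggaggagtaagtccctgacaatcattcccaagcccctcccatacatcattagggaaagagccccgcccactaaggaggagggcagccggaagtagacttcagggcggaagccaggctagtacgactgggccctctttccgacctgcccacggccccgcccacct
Slc26a6, chr9:108853793-108854042, plus strand: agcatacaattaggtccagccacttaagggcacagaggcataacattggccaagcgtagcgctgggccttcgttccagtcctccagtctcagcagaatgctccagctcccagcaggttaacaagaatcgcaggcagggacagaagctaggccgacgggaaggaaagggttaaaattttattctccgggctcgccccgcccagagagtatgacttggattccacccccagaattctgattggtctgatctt
Slc5a3, chr16:92058072-92058321, plus strand: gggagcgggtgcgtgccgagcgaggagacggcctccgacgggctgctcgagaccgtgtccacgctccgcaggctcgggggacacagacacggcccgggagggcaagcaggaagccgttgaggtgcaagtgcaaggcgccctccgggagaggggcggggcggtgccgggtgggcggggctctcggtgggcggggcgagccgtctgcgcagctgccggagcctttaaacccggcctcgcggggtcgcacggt
Aqp11, chr7:97738248-97738497, minus strand: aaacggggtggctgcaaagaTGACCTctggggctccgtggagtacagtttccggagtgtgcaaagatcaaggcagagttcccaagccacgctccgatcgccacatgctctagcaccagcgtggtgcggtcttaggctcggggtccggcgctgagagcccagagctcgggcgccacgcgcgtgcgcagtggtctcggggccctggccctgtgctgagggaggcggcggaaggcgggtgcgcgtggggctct
Slc24a3, chr2:145167525-145167774, plus strand: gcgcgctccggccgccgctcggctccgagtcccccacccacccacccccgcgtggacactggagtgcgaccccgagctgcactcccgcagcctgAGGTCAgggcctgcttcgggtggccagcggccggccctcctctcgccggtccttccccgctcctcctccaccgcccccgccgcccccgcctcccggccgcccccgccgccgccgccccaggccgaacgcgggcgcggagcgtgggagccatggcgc
The core element stands 230 bases before the start of Aqp11, on the opposite strand, and 156 bases before the first of the Slc24a3 starts in the table, while another start of that gene had none. The stretches of Slc24a3 and Slc5a3 are rich in G and C (80.8% and 74.8%), and those of Slc25a20 and Slc26a6 less so (56.8% and 53.2%).

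Starts in the RefSeq table were found for 34 of the 46 genes, 47 starts in all. AGGTCA was found on either strand within 250 bases before 8 of the 47 starts (17.0%), against 14.0% of all 32851 starts in the table. These starts belong to Aqp11, Slc24a3, Slc4a4 and Trpm1, which were higher with NT-PGC-1α, and to Scn8a, Slc17a1 and Slco4a1, which were lower. None of the 47 starts held AGGTCANAGGTCA, its direct repeat with 1 base between (0.0335% of all starts), the ERR element TNAAGGTCA (1.14%), the cyclic AMP response element TGACGTCA (1.55%) or the palindromic NRF1 site (0.782%). The ERR element and the repeat each contain the core element, and the absence of these letters says nothing of the factors.

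Of the 47 probes, the study lists 29 as higher and 18 as lower with NT-PGC-1α, and for all 47 the pools did not overlap and differed in the listed direction. The listing was made on these arrays, with a lower threshold for higher than for lower signals, so the counts and folds below describe the list and no test is given. At 1.5-fold and without overlap, 18 of the 29 were higher, where 16.9% of all probes were, and all 18 listed as lower were lower, where 17.6% of all probes were. At 1.2-fold, all 29 were higher, where 28.6% of all probes were. Arrays did not overlap between the pools for 71.7% of all probes. The methods' t-test between arrays passed all 29 higher members and all 18 lower members at an unadjusted threshold of 0.05. Of all probes, 16.9% passed as higher and 17.3% as lower. The list was filtered at the same threshold on these arrays, so the passes describe the list. The paper does not say which test gave the p-values of that filter. Limma between arrays, with Benjamini-Hochberg adjustment, called 23 of the 29 and all 18, where 11.9% and 12.8% of all probes were called. Both tests set the pools against the error between hybridizations. The median log2 fold was 0.83 for the higher members, from 0.79 to 0.88 over the 4 pairings, and -1.49 for the lower members, from -1.59 to -1.43. The median over all probes was 0.01. The members closest to the thresholds were Slc2a4 at 1.27-fold higher and Aqp12 at 1.68-fold lower. The transporters and channels just outside the thresholds could not be given, since most probes outside the list carry no symbol.

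The median signal of all probes after normalization was 420.3, called the array median below. Across the 47 members, which share arrays and pools, the size of the log2 fold and the mean signal over the 4 arrays had a Spearman correlation of -0.59, and across all probes of -0.24. Of all probes below the median level, 21.2% were higher and 21.4% lower by 1.5-fold or more without overlap, against 12.1% and 13.4% of those at or above it. Arrays A and B of a pool differed by a median of 1.06-fold for the members and 1.12-fold for all probes, and by at most 1.56-fold for any member.

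**Figure D1:**
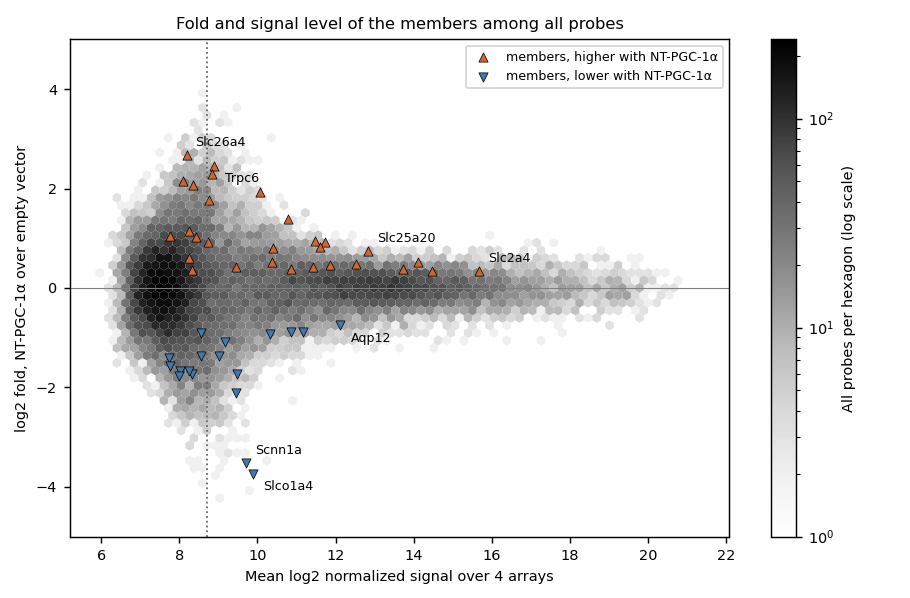
The mean log2 normalized signal over the 4 arrays (x axis) and the log2 fold of NT-PGC-1α over empty vector (y axis), with all probes as grey hexagons, the 29 higher members as orange triangles and the 18 lower members as blue triangles. The dotted line is the median signal, 9 probes beyond a log2 fold of 5 are not drawn, and the members with the largest folds lie near or left of log2 10 while Slc25a20 and Slc2a4 lie far to the right with small folds.

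The 3 carriers of the mitochondrial inner membrane were all higher with NT-PGC-1α, and all 3 had signals well above the median of the array. Slc25a20, which exchanges acylcarnitine for carnitine and so brings fatty acids to β-oxidation, had signals of 5378 and 5871 in the empty vector pool against 9324 and 9389 in the NT-PGC-1α pool. It was 1.67-fold higher, from 1.59 to 1.75 over the pairings. Slc25a12, the aspartate and glutamate carrier of the malate-aspartate shuttle, had 11731 and 11886 with empty vector against 15465 and 15437 with NT-PGC-1α, 1.31-fold higher. Slc25a11, which carries oxoglutarate and malate in the same shuttle, had 2283 and 2426 against 3113 and 3217, 1.34-fold higher. In each carrier the signals of arrays A and B lay much closer together than the pools did. Without normalization the log2 folds were lower, 0.54 for Slc25a20, 0.20 for Slc25a12 and 0.16 for Slc25a11, so that none reached 1.5-fold and the last pair lay below 1.2-fold in that setting.

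Carriers of sugars, polyols and nucleotide sugars differed in both directions, with 3 higher and 2 lower. Slc2a4 (GLUT4), the insulin-regulated glucose transporter, had signals of 45945 and 46034 in the empty vector pool against 57323 and 59870.2 in the NT-PGC-1α pool, 1.27-fold higher. Its log2 fold of 0.35 became 0.32 without NT-PGC-1α array B and 0.21 without normalization, the latter below 1.2-fold. Slc37a2, a sugar phosphate exchanger of the endoplasmic reticulum, was 1.74-fold higher, with 1053 and 1008 against 1700.0 and 1881. Slc35a4, a member of the nucleotide sugar transporter family, had 515 and 572 with empty vector against 2028 and 2139 with NT-PGC-1α, 3.84-fold higher, the largest fold among higher members whose signal exceeded the array median in both pools. Its probe also carries a second gene identifier.

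Both lower members of this group had signals above the median with empty vector and below it with NT-PGC-1α. Slc5a3, which takes up myo-inositol together with sodium, had 667 and 544 with empty vector against 204 and 269 with NT-PGC-1α, 2.57-fold lower, from 2.02 to 3.27 over the pairings. Slc35d1, which brings UDP-glucuronic acid and UDP-N-acetylgalactosamine into the endoplasmic reticulum, had 803 and 872 against 375 and 417, 2.12-fold lower. Kcne1, the neighbour of Slc5a3, is described with the potassium channels.

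The amino acid carriers were both higher. Slc43a2, a facilitator for large neutral amino acids, had signals of 117 and 143 in the empty vector pool against 591 and 563 in the NT-PGC-1α pool, 4.47-fold higher. Adding a constant of 112, the 5th percentile of signal, to each value lowered its log2 fold from 2.16 to 1.51. Slc16a10, which lets aromatic amino acids pass, had 1049.7 and 1136 against 1561 and 1600.0, 1.45-fold higher. The creatine transporter Slc6a8 had 1626 on both empty vector arrays and 2117 and 2142 with NT-PGC-1α, 1.31-fold higher, but without normalization its arrays overlapped between the pools. The zinc transporter Slc39a11 was 1.28-fold higher, with 19434 and 21070.0 against 26444 and 25299, and its log2 fold was 0.21 without normalization, below 1.2-fold.

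Slc16a1 (MCT1), which carries lactate, pyruvate and ketone bodies with a proton, was lower. Its signals were 1840.0 and 1706 with empty vector against 930.4 and 933 with NT-PGC-1α, 1.90-fold lower, from 1.83 to 1.98 over the pairings. Slc16a1 and Slc16a10, members of the same family, differed in opposite directions between the pools. Slc29a3, a nucleoside transporter of lysosomes, had 484 and 539.6 against 269 and 276, 1.87-fold lower.

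The 3 carriers grouped here under organic anions were all lower with NT-PGC-1α. Members of other groups also carry organic anions. Among these, Slc26a6 (oxalate) and Slc25a11 (oxoglutarate and malate) were higher, and Slc16a1 (lactate) was lower. Slco1a4, which transports bile acids, steroid conjugates and thyroid hormones, had the largest fold of the 47 probes in either direction. Its signals were 3531 and 3342 with empty vector against 225 and 292 with NT-PGC-1α, 13.4-fold lower, from 11.4 to 15.7 over the pairings. It stood at rank 28 of 33012 probes ordered from the lowest fold. Slco4a1, a transporter of thyroid hormones and other organic anions, had 557 and 526 against 174 and 166, 3.18-fold lower. Its log2 fold went from -1.67 to -1.21 with the constant described above added to each value. Slc17a1, a phosphate and urate transporter, had 856 and 804 against 306 and 338, 2.58-fold lower. For all 3 the empty vector signals were above the array median and the NT-PGC-1α signals below it.

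The 3 carriers of chloride, bicarbonate and related anions were all higher with NT-PGC-1α. Slc26a4 (pendrin), an exchanger of chloride, iodide and bicarbonate, had the largest fold of the higher members, with signals of 92.1 and 144 in the empty vector pool against 852 and 631 in the NT-PGC-1α pool, 6.37-fold higher. Its range over the pairings was wide, from 4.39 to 9.25, and adding the constant of 112 lowered its log2 fold from 2.67 to 1.89. Slc26a6, an exchanger of chloride for oxalate or bicarbonate, had 1121 and 1064 against 3002 and 2728, 2.62-fold higher. Slc4a4, the sodium bicarbonate cotransporter, had 2402 and 2269.7 against 4042 and 4281, 1.78-fold higher. Another Slc4a4 probe with the same identifier was 1.06-fold higher, and the log2 fold of 0.83 became 0.46 as the mean over both probes and 0.58 without normalization, each below 1.5-fold.

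**Figure D2:**
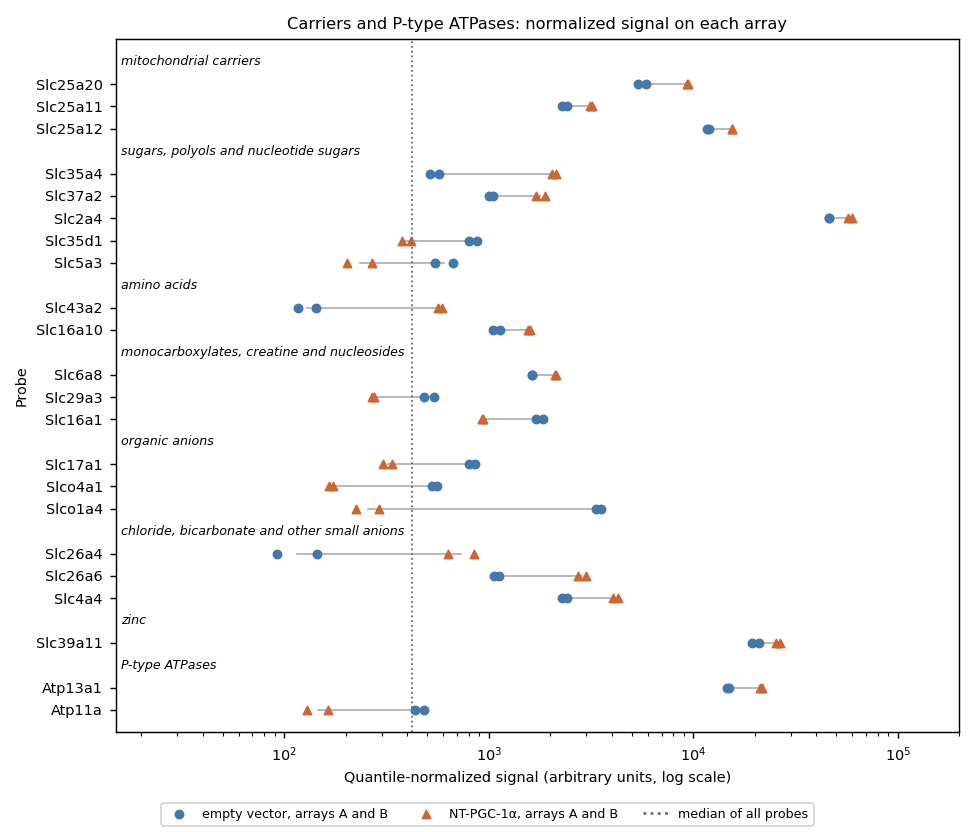
Quantile-normalized signals on a log axis for the carriers and P-type ATPases described here, with blue circles for the 2 empty vector arrays, orange triangles for the 2 NT-PGC-1α arrays and a grey line between the means of the pools. The dotted line is the median of all probes. The 3 mitochondrial carriers and the 3 chloride and bicarbonate carriers lie higher with NT-PGC-1α. The 3 carriers grouped under organic anions lie lower, with Slco1a4 the widest apart.

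Members grouped here as calcium channels and exchanger were split, with 4 higher and 2 lower. The TRP family, which includes cation channels, is counted apart below. Slc24a3, an exchanger that extrudes calcium and potassium for sodium, had signals of 184 and 135 in the empty vector pool against 719 and 611 in the NT-PGC-1α pool, 4.20-fold higher. The T-type calcium channel subunit Cacna1h had 238 and 228 against 749 and 852, 3.43-fold higher. Cacna2d1, an auxiliary subunit that brings calcium channels to the surface, was 1.89-fold higher, with 312 and 305 against 609 and 559.7. Cacna1a, the pore of P/Q-type channels, had 261 and 232 against 365 and 388, all below the array median, and its log2 fold of 0.61 became 0.53 without empty vector array B, which is under 1.5-fold.

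The lower calcium channel members belong to L-type channels or serve as a partner of the pore. Cacna1d, an L-type pore, had 531 and 634 with empty vector against 198 and 154 with NT-PGC-1α, 3.32-fold lower. Cacnb1, an intracellular β subunit, had 3019.7 and 3183 against 1710.2 and 1643, 1.85-fold lower. All 3 pore subunits had signals below the array median in at least 1 pool.

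The 4 probes of the TRP family and its partner were all at least 1.91-fold higher with NT-PGC-1α. Trpc6, a cation channel opened by diacylglycerol, had 176 and 229 with empty vector against 1077 and 1137 with NT-PGC-1α, 5.51-fold higher, from 4.71 to 6.45 over the pairings. Trpm1, known from melanocytes and the retina, had 188 and 220.2 against 492 and 409.6, 2.21-fold higher. Trpc2, known from the vomeronasal organ, had 2553 and 2336 against 4699 and 4610.1, 1.91-fold higher. The adaptor Trpc4ap had 2090.1 and 1989 against 3839 and 4044, 1.93-fold higher. Without normalization the log2 fold went from 0.95 to 0.70 for Trpc4ap and from 0.93 to 0.69 for Trpc2. In that setting it was 2.43 for Trpc6 and 1.21 for Trpm1, against 2.46 and 1.14 with normalization. Trpc2 and Trpc4ap were above the array median on all arrays, while Trpc6 and Trpm1 were below it with empty vector.

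The potassium channels described here gave 3 higher and 4 lower, and the Kcnk family of background channels was divided. Kcnk3 (TASK1), an acid-sensitive member, had signals of 5034 and 4856 in the empty vector pool against 7051 and 6862 in the NT-PGC-1α pool, 1.41-fold higher, from 1.36 to 1.45 over the pairings. Kcnk4, a mechanosensitive channel of the same family, was 1.29-fold higher, with 281 and 285 against 359 and 373, all below the array median. Kcnk2 (TREK1), another mechanosensitive member, had 1364 and 1215 with empty vector against 359.8 and 419 with NT-PGC-1α, 3.32-fold lower. Without normalization the log2 fold was 0.30 for Kcnk3 and -1.86 for Kcnk2. Kcnv1, a subunit that is silent alone and modifies other voltage-gated channels, had 618 and 598 against 800.4 and 826, 1.34-fold higher.

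Both β subunits of the Kcne family and an inward rectifier were lower. Kcne4 had signals of 2529 and 2492 in the empty vector pool against 1421 and 1285 in the NT-PGC-1α pool, 1.86-fold lower. Kcne1, which slows the gating of its partner channel, had 354 and 339.8 against 135 and 127, 2.65-fold lower. The inward rectifier Kcnj14 had 380.0 and 369 against 136 and 117, 2.97-fold lower. With the constant described above added to each value, the log2 fold went from -1.57 to -1.03 for Kcnj14 and from -1.41 to -0.92 for Kcne1. For Kcne1 and Kcnj14 the signals of both pools were below the array median, while Kcne4 was above it throughout.

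The 3 sodium channel subunits were all at least 3.44-fold lower with NT-PGC-1α. Scnn1a and Scnn1g encode the α and γ subunits of the epithelial sodium channel, the amiloride-sensitive channel of kidney, lung and colon epithelium. Scnn1a had signals of 2639.6 and 3059 in the empty vector pool against 224 and 271 in the NT-PGC-1α pool, 11.5-fold lower, from 9.74 to 13.7 over the pairings, and stood at rank 38 of 33012 from the lowest fold. Scnn1g had 1680.1 and 1279 against 351 and 322, 4.36-fold lower, from 3.65 to 5.22. The voltage-gated channel Scn8a, known from neurons, had 469.5 and 473 against 136 and 138, 3.44-fold lower, from 3.41 to 3.48. With the constant described above added to each value, the log2 fold of Scn8a went from -1.78 to -1.23. The narrow range over the pairings does not cover this shift. In all 3 the empty vector signals were above the array median and the NT-PGC-1α signals below it.

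The water channels differed in opposite directions, both above the array median. Aqp11, a channel of intracellular membranes, had 3116 and 3237 with empty vector against 4263 and 4513 with NT-PGC-1α, 1.38-fold higher. Aqp12 had 5852 and 5577 against 3449 and 3334, 1.68-fold lower. The probes for the P-type ATPases also differed in opposite directions. Atp13a1, an ATPase of the endoplasmic reticulum that removes misinserted membrane helices, had 14626 and 15023 against 21636 and 21205, 1.45-fold higher. Atp11a, a flippase that moves phospholipids to the inner leaflet of the plasma membrane, had 436 and 484 against 163 and 129.7, 3.15-fold lower. Another Atp11a probe with the same identifier was 1.09-fold higher, and the mean over both moved the log2 fold from -1.66 to -0.77.

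**Figure D3:**
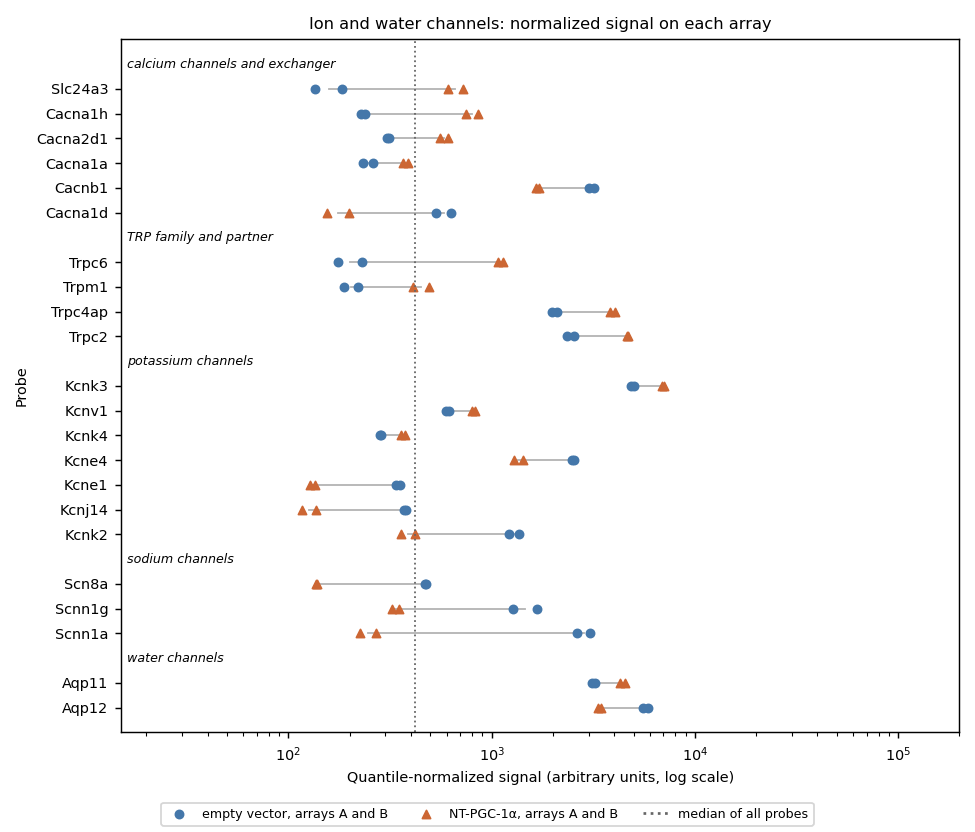
Quantile-normalized signals on a log axis for the ion and water channel members and the calcium exchanger Slc24a3, with blue circles for the 2 empty vector arrays, orange triangles for the 2 NT-PGC-1α arrays and a grey line between the means of the pools. The 4 probes of the TRP family and its partner lie higher with NT-PGC-1α. The 3 sodium channel subunits lie lower, and calcium, potassium and water channels lie on both sides.

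For 4 of the genes described here, another probe of the arrays shares a gene identifier with the member and is absent from the study's list. These probes come from the same pools and arrays, so they are a second look at the gene and not a second sample. Of the 4, 3 differed in the direction of the member, by log2 folds of 0.09 to 0.16, each 1.12-fold or less. The median size of the log2 fold over all probes was 0.4. The Trpc6 and Trpc2 probes among the 3 carry several identifiers and cannot be counted as agreement. For Slc4a4, probe 836970 carries the same identifier alone and had signals of 2699.8 and 2674 in the empty vector pool against 2737 and 2976 in the NT-PGC-1α pool, 1.06-fold higher, where the member probe was 1.78-fold higher at a like signal. For Atp11a, probe 466605 had 9806 and 9815 against 10688 and 10673, 1.09-fold higher, where the member probe was 3.15-fold lower from signals near the array median.

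The probes that share an identifier with Trpc6 and Trpc2 carry 7 and 10 identifiers and signals far above those of the members, and were 1.12-fold and 1.10-fold higher. They cannot be assigned to the TRP genes alone.

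**Figure D4:**
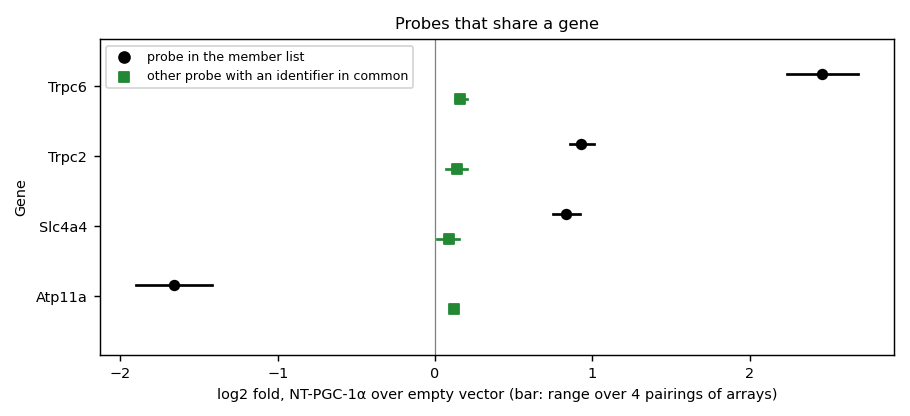
The log2 fold of NT-PGC-1α over empty vector (x axis) for probes that share a gene, with black circles for member probes, green squares for other probes with an identifier in common, and bars for the range over the 4 pairings of arrays. The Slc4a4, Trpc6 and Trpc2 squares lie near 0 on the side of their members, and the Atp11a square lies on the other side of 0 from its member.

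The directions of the 47 members held under each of the 11 alternatives run for single folds, which gave 517 folds and no change of sign. Members were listed for their direction on these arrays, and the pools overlapped for none of them. A change of sign was therefore unlikely from the outset, most of all with an array left out. The sizes moved more. Without normalization, 15 of the 29 higher members reached 1.5-fold and 22 reached 1.2-fold without overlap, with Slc4a4, Slc37a2 and Slc25a20 now under 1.5-fold, while all 18 lower members stayed at least 1.5-fold lower. The 7 higher members below 1.2-fold in that setting were Aqp11, Slc25a11, Kcnv1, Slc25a12, Slc6a8, Slc39a11 and Slc2a4. Centring on the 75th percentile moved the median log2 fold of all probes to 0.22 and raised the number of higher members at 1.5-fold to 20.

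**Figure D5:**
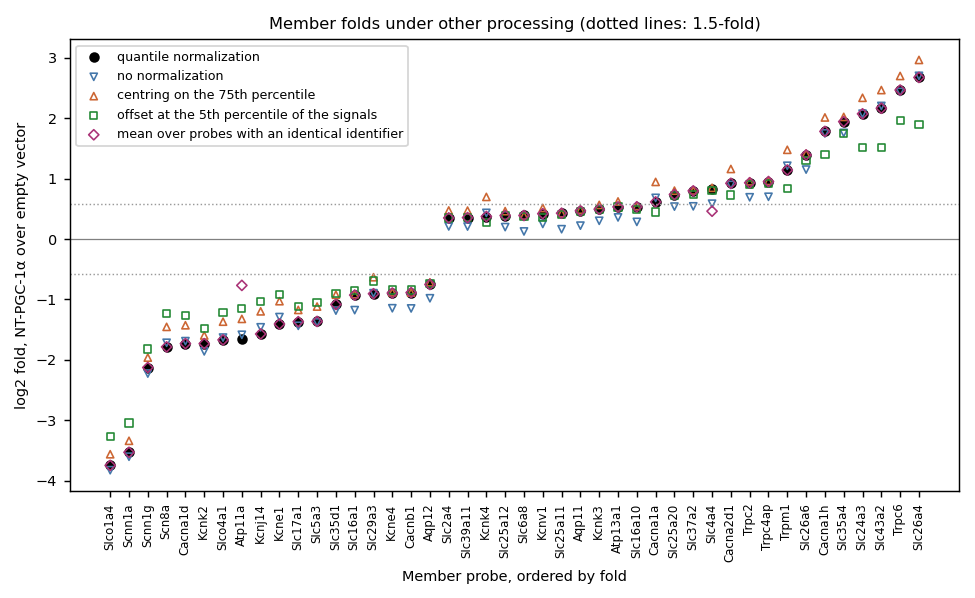
The log2 fold of each member probe described here (y axis), ordered by its fold under quantile normalization (black), with open symbols for no normalization, centring on the 75th percentile, an added constant of 112 (the offset of the legend) and the mean over probes with an identical identifier. No symbol crosses 0, the constant draws the largest folds towards 0, and the mean over probes moves Atp11a and Slc4a4 most.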

How the data were processed

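Signals of 33012 probes on 4 ABI Mouse Genome Survey arrays (2 pools, 2 arrays each) were analysed. The authors deposited a linear intensity for each probe that had not been normalized between arrays, read on an Applied Biosystems chemiluminescent analyzer. The submitters' processing notes name R 2.2.1. The sources used here do not state whether background was subtracted, and signal to noise ratios and quality flags were not used. Array medians were 395 to 448. The 75th percentiles differed more between the groups, with 3779.5 and 3335 on the empty vector arrays against 3147 and 2779 on the NT-PGC-1α arrays. Log2 signals were normalized by quantiles across the 4 arrays with limma 3.58.1 in R 4.3.3, with no offset and no filter, and the fold calculation was tested on simulated data. Python 3.11.15, numpy 2.4.6, pandas 2.3.3, scipy 1.17.1 and matplotlib 3.10.9 were used for the rest.

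Probe names came from the study's list of changed genes (names and direction of listing only) and, for 287 probes with a RefSeq accession, from RefSeq genes of GRCm38.p6. The members, classes and lists were chosen with earlier results of these data known. All members may be named, and other probes only as sharing an identifier, as markers, or as further transporters or pumps named in these ways. The methods' t-test (Student's form, 2 arrays against 2, unadjusted threshold 0.05) and limma (Benjamini-Hochberg adjusted threshold 0.05) set the difference of the pools against the spread of arrays A and B, which are hybridizations of 1 pool, and only their counts are given. Alternatives were no normalization, centring on the median or 75th percentile, cyclic loess, normexp (offset 50), an added constant at the 5th percentile, a filter at the array median, the mean over probes of an identifier, each array left out in turn, a block for the letters A and B, and Welch or adjusted forms of the t-test. Promoter sequences came from RefSeq, and the small number of arrays limits the precision. Counts over the members include 2 genes whose results are not reported here.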

Additional observations from a re-analysis of the deposited data

How the results depend on the processing

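No sign of a member's fold changed, but the medians moved by over 1 SD of their values over the 4 pairings in the settings given here, and the cause was not tested. The median log2 fold of the higher members was 0.68 without normalization, 0.70 with median centring, 0.94 with centring on the 75th percentile, 0.73 with the constant at the 5th percentile and 0.80 with the mean over probes of an identifier. That of the lower members was -1.18 with centring on the 75th percentile, -1.38 with normexp, -1.08 with the constant and -1.39 with the mean over probes. With 1 array left out, the medians lay from 0.79 to 0.88 and from -1.56 to -1.40. Single folds moved by over 1.5 times for Slc26a4 and Slc43a2 with the constant and for Atp11a with the mean over probes, and for no member when an array was left out. The methods' t-test, which passed 29 higher and 18 lower members, passed 16 and 18 without normalization (10.3% of all probes higher and 12.9% lower), and 0 and 1 after Benjamini-Hochberg adjustment (0.279% and 0.403%). Paired by array letter (replicate block), it passed 18 and 13 (8.29% and 8.96%). Limma, which called 23 and 18, called 15 and 18 without normalization (16.2% and 15.9% of all probes). With the letter as a block it called 0 and 0 and no probe of the array, while 26 and 18 members had an unadjusted p under 0.05 (18.4% and 19.2% of all probes). Array A had the higher median signal in both pools (448 and 442 against 398 and 395), and after quantile normalization the deviations of arrays with the same letter had a correlation of -0.02 over all probes. The labels do not say what the letters stand for. Of the 3 other probes with an identical identifier entry, 2 differed in the direction of the member. The filter at the array median kept 41 of the 47 members. Every fold is between 2 pools, with 1 pool per group.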

Other observations

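From the study's list, 8 probes outside the prefixes above were also picked by name, most of them for pumps, pores and junction proteins. Of these 8, which are not a full count of such proteins in the list, 3 were higher and 5 lower with NT-PGC-1α. As these were listed for their change on the same arrays, the counts describe the list. Atp4a, the catalytic subunit of the gastric proton pump, had signals of 2002 and 2232 in the empty vector pool against 269.7 and 207 in the NT-PGC-1α pool, 8.95-fold lower, with a range of 7.42 to 10.8 over the pairings of arrays. Tmc5, a transmembrane channel-like gene, was 3.30-fold lower, the gap junction protein Gja5 2.50-fold lower, and Kctd10, an adaptor of ubiquitin ligases with a channel-type tetramerisation domain, 1.65-fold lower. The ATP-gated channels P2rx3 and P2rx5 were 2.00-fold and 1.86-fold higher. P2rx5, a surface marker known from brown fat, had 2425 and 2422 with empty vector against 4319 and 4722 with NT-PGC-1α. Subunits of the vacuolar proton pump differed in opposite directions, with Atp6v1a1 2.20-fold higher and Atp6v1e2 2.29-fold lower, both from signals near or below the array median.

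Outside the list, 3 probes could be given a symbol with one of the member prefixes through a RefSeq accession, and none had been listed for its change. Slc47a1, an exporter of organic cations, had 148 and 169 with empty vector against 134 and 142 with NT-PGC-1α, 1.14-fold lower. Slc35g3 was 1.54-fold lower, with 201 and 160.1 against 131 and 104. Kcnrg had 232 and 192 against 552 and 229.5, so its arrays overlapped between the pools. All 3 had a mean signal below the array median in both pools, and too few probes of this kind carry a symbol to describe unlisted transporters.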
